A study of Mus musculus with 39 samples.

Results

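Galectins are lectins that bind β-galactoside sugars on glycoproteins and glycolipids, and they act outside cells, in the cytosol and at damaged membranes. Galectin-1 is a prototype galectin, galectin-3 is the chimera type with a collagen-like tail, and galectin-4, galectin-8 and galectin-9 are tandem-repeat galectins with a pair of sugar-binding domains joined by a linker. Galectin-3-binding protein, encoded by Lgals3bp, is not a lectin of this family but a secreted glycoprotein that galectins bind. In brain, Lgals3 is known as a gene of activated, phagocytic microglia, and galectin-3 is a reported ligand of the microglial receptor Trem2.

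The 6 genes were taken by symbol from the gene count tables of microglia, and all 6 were listed in both tables, among 46333 genes in the female table and 54532 in the male table. Each of the 6 passed the filter on low counts (CPM, counts scaled to library size, above 1 in at least 3 of the libraries compared). The 39 libraries came from WT (C57Bl6) and 5XFAD mice kept in normoxia (NX, 21% oxygen) or chronic intermittent hypoxia (CIH), in which 6.5% and 21% oxygen alternated at intervals of 90 s for 8 h of the sleep phase each day. Exposure began at 4 months of age and lasted until 10 months in females and 8 months in males. Each group held 5 libraries, apart from female WT NX with 4, while the study's methods give 5 samples for every group. The oxygen level and the daily hours are those of the deposited description of the design, and the study's methods text gives longer daily hours and a slightly lower oxygen level. 5XFAD mice carry mutant human amyloid precursor protein and presenilin 1 transgenes that are expressed in neurons, so that microglia meet amyloid made by other cells. Male 5XFAD mice of a B6SJL-derived line were mated with C57BL/6J females, which leaves the strain background a possible difference between transgenic and WT animals. The cells were CD11b+ cells of the cerebrum, and CD11b is also carried by border macrophages, monocytes and neutrophils.

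Total counts were 14731683 to 25906121 in females and 13457293 to 23095627 in males. The 10 markers of microglia were all detected, with a summed level of 26778 to 39785 CPM over all libraries, and the 10 markers of neutrophils summed to 10.1 to 1304 CPM. The study's methods mention 1 outlier among the female normoxia samples, which the main text does not name. A pair of female libraries stood apart in the genes described here. F WT NX 1 had 204.998 CPM of Lgals3 and 29.9 CPM of Lgals1, far above the other female WT NX libraries, and it also held 760 CPM of Gpnmb, 2563 CPM of Spp1 and 477 CPM of Mmp12, against at most 1.49, 21.7 and 4.71 CPM in the other 3 (genes chosen after their values were seen). The same library held 13.2 CPM of the keratinocyte gene Krt5 and 63 reads of the epithelial galectin gene Lgals7. F 5XFAD NX 4 had levels of Lgals3bp and Lgals3 near those of WT libraries and the highest Lgals4 of all female libraries. Its summed level of 33 genes of disease-associated microglia (DAM) was 17258 CPM, below all 9 female WT libraries (18700 to 31203 CPM), against 72973 to 117386 CPM in the other 4 female 5XFAD NX libraries, and its interferon response genes summed to 974 CPM against 1883 to 3190 CPM. Values of the female NX genotype comparison are therefore also given without these libraries. In bulk RNA, fewer cells of a kind and less RNA per cell cannot be told apart. The study's methods call the samples independent without saying that each was 1 animal, so p-values measure the spread between libraries. The comparisons within a sex share groups with one another.

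All 6 genes lie on autosomes of GRCm38 as single annotated genes. Lgals3 (ENSMUSG00000050335) spans chr14:47367751-47386160 on the plus strand, Lgals3bp (ENSMUSG00000033880) chr11:118392751-118402092 on the minus strand, and Lgals9 (ENSMUSG00000001123) chr11:78962974-78984946 on the minus strand. Lgals4 (ENSMUSG00000053964) spans chr7:28833854-28841708 on the plus strand, Lgals8 (ENSMUSG00000057554) chr13:12439415-12464944 on the minus strand, and Lgals1 (ENSMUSG00000068220) chr15:78926725-78930465 on the plus strand. The annotation gives from 5 merged exons in Lgals1 to 12 in Lgals8. Gene lengths behind the female values are shorter than those of the male table (1392 against 1858 bases for Lgals3). Which exons each table counted was not checked. Lgals8 overlaps Heatr1 on the opposite strand, and the counting is not stated to use strand, so reads of the shared stretch could belong to either gene. Lgals6, a near-identical copy of Lgals4, was not listed in the tables, and whether these mice carry it was not examined. Any reads from it could have been counted for Lgals4.

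RefSeq promoter sequences (GRCm38.p6) were matched for Lgals3, Lgals3bp, Lgals4, Lgals8 and Lgals9. Those of Lgals3bp, Lgals3, Lgals4 and Lgals9 are shown 5′ to 3′ as far as no annotated exon begins. Under CIH, Lgals3bp and Lgals3 were higher and Lgals4 was lower in 5XFAD than in WT microglia, in both sexes. Lgals9 was the only one with a match to a searched motif, given in capitals. The Lgals3 stretch shown and the Lgals8 window searched lie inside the annotated span of their genes, because the RefSeq start used is not the outermost annotated start.
Lgals3bp, chr11:118402093-118402209, minus strand: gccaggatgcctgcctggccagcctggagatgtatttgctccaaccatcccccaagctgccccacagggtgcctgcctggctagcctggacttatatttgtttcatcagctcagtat
Lgals3, chr14:47373610-47373812, plus strand: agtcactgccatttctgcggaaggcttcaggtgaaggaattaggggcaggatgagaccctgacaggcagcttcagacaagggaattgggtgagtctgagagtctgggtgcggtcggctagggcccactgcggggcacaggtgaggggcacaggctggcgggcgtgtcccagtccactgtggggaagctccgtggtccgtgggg
Lgals4, chr7:28833544-28833793, plus strand: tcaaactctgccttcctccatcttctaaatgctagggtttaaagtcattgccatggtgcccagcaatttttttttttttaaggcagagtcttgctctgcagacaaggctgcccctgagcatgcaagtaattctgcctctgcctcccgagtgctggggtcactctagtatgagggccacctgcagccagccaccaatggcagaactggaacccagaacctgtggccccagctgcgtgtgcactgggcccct
Lgals9, chr11:78984947-78985174, minus strand: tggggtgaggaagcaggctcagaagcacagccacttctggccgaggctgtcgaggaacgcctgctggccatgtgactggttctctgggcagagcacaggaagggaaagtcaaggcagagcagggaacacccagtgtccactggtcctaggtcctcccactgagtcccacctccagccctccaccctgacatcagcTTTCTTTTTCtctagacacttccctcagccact
Within the 250 bases before the RefSeq start, 6 motifs were searched on both strands: the interferon-stimulated response element core (GAAA and GAAA with 2 bases between), the STAT element TTCNNNGAA, the hypoxia response element core ACGTG, the E-box CACGTG (which contains ACGTG), the PU.1 motif GAGGAAGT and the TATA box TATAAA. The Lgals9 sequence held 1 match, to the interferon-stimulated response element core on the opposite strand, between 55 and 46 bases before the start. That motif occurred in 2.98% of 32851 promoter windows, the STAT element in 7.02%, the hypoxia core in 16.6%, the E-box in 6.02%, the PU.1 motif in 2.44% and the TATA box in 12.4%. No other match to these letters was found in the 5 windows.

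The galectins differed widely in level. Per kilobase of transcript, Lgals9 was the highest true galectin in every group, from 95.6 ± 16.8 CPM per kb in male WT CIH to 156 ± 11.9 in male WT NX (SD, n = 5 each). In female WT CIH, Lgals9 (117 ± 12.3 CPM per kb, n = 5) and Lgals3bp (98.3 ± 22.5) overlapped in their spread, and Lgals8 followed at 50.8 ± 2.74. Lgals1 (6.56 ± 1.54), Lgals3 (5.22 ± 1.16) and Lgals4 (4.06 ± 0.490) were lowest there, and Lgals3 overlapped in its spread with both Lgals1 and Lgals4. In female 5XFAD CIH the order was Lgals3bp at 618 ± 97.3, Lgals9 at 107 ± 8.38, Lgals3 at 42.3 ± 9.35, Lgals8 at 38.5 ± 1.06, Lgals1 at 6.56 ± 3.04 and Lgals4 at 1.75 ± 0.362 CPM per kb (SD, n = 5), and Lgals3 and Lgals8 overlapped in their spread. Male 5XFAD CIH microglia had the same order, from Lgals3bp at 527 ± 74.4 over Lgals9 at 128 ± 36.8, Lgals3 at 52.9 ± 15.6, Lgals8 at 22.7 ± 2.30 and Lgals1 at 17.2 ± 8.13 to Lgals4 at 1.41 ± 0.160 CPM per kb (SD, n = 5), where Lgals8 and Lgals1 overlapped in their spread. The tables of the sexes were scaled separately and use different gene lengths, so levels were not tested between the sexes.

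Expressed as a share of the 5 true galectins on the length-scaled level, Lgals3 made up 2.82% ± 0.435 in female WT CIH and 21.4% ± 3.43 in female 5XFAD CIH, and 3.33% ± 0.567 and 23.7% ± 1.89 in the corresponding male groups (SD, n = 5). The share of Lgals8 was 27.8% ± 2.05 in female WT CIH and 19.7% ± 1.69 in female 5XFAD CIH. In males it was 23.6% ± 2.61 and 10.9% ± 3.43. Lgals9 kept the largest share in each of these groups, from 54.6% ± 3.02 to 64.3% ± 3.72. Shares within a library are tied to each other and were not tested.

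**Figure D1:**
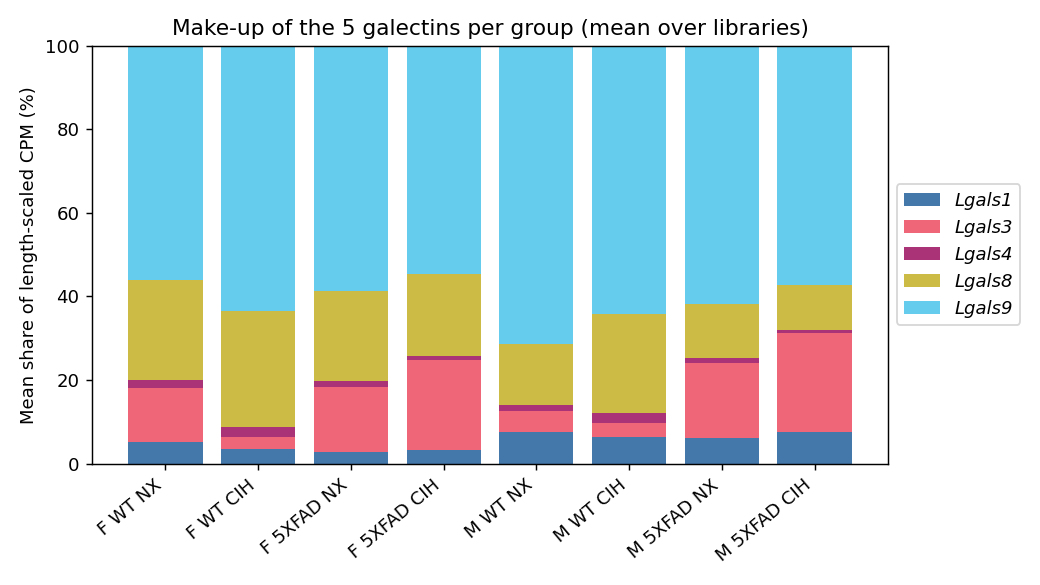
Stacked bars give the mean share (%) of Lgals1, Lgals3, Lgals4, Lgals8 and Lgals9 in their summed length-scaled CPM, for 4 female (F) and 4 male (M) groups of 4 or 5 libraries. Lgals9 is the largest part of every bar, and the Lgals3 part is larger in both 5XFAD CIH bars (21.4% and 23.7%) than in the WT CIH bars (2.82% and 3.33%); the F WT NX bar includes the library F WT NX 1.

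Lgals3bp was higher in 5XFAD than in WT microglia in both sexes and under both treatments. Its CPM in female WT NX libraries 1 to 4 were 242, 206, 210.5 and 249, and in female 5XFAD NX libraries 1 to 5 they were 1979, 1688, 1502, 252 and 2029.9. Apart from F 5XFAD NX 4, which lay just above the WT libraries, every 5XFAD value was several times the WT values. The log2 fold change (log2FC, positive where the group named second is higher) was 2.71 ± 0.49 (SE), with an FDR of 0.0175 by edgeR's quasi-likelihood F test. Without F 5XFAD NX 4 it was 2.98 ± 0.12 (FDR = 6.81e-07), and without F WT NX 2, F WT NX 3, F WT NX 4 or F 5XFAD NX 5 the FDR of Lgals3bp was 0.0512, 0.0656, 0.0542 or 0.0505, just past the limit of 0.05. With the replicate number as a block it was not called (2.32 ± 0.58, FDR = 0.105).

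Under CIH, Lgals3bp stood at 301, 173, 187, 237 and 209 CPM in female WT libraries and at 1271, 1271, 1462, 1203 and 1741 CPM in female 5XFAD libraries. The groups did not overlap, and log2FC was 2.67 ± 0.15 (edgeR FDR = 1.44e-08). In males, WT NX libraries had 279, 268, 329.8, 279 and 319 CPM and 5XFAD NX libraries had 2054, 1359, 1845, 1206 and 1078 CPM, with log2FC = 2.36 ± 0.18 (edgeR FDR = 1.89e-06). Male WT CIH libraries had 204, 225, 149.8, 188 and 168 CPM and 5XFAD CIH libraries had 1461, 1300.3, 1332, 1596 and 1817.5 CPM. In that last comparison log2FC was 3.01 ± 0.13 (edgeR FDR = 7.39e-10), and Lgals3bp ranked 31 by p among 14793 genes tested. Mean levels of Lgals3bp in 5XFAD were 5.12 to 8.03 times those in WT over the 4 genotype comparisons, and in female NX the ratio was 6.57 with all libraries and 8.11 without F WT NX 1 and F 5XFAD NX 4.

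Lgals3, the gene of galectin-3, was higher in 5XFAD in 3 of the 4 genotype comparisons, and in the fourth its result rested on 1 library. Female WT CIH libraries had 7.57, 5.35, 6.06, 9.47 and 7.89 CPM, and female 5XFAD CIH libraries had 69.3, 47.3, 44.2, 59.8 and 73.7 CPM. The groups were far apart (log2FC = 3.03 ± 0.18, edgeR FDR = 2.05e-08). In male WT CIH the values were 7.82, 9.71, 7.89, 9.89 and 9.87 CPM, and in male 5XFAD CIH 83.1, 76.5, 84.1, 100.2 and 148 CPM. The male difference under CIH was the largest among the 6 genes (log2FC = 3.45 ± 0.18, edgeR FDR = 2.93e-09), a ratio of means of 10.9. Male NX libraries of Lgals3 had 15.5, 12.1, 15.7, 28.4 and 32.1 CPM in WT and 90.3, 104, 93.2, 40.2 and 38.1 CPM in 5XFAD. The groups did not overlap, though M 5XFAD NX 4 and 5 lay close to the highest WT libraries, and log2FC was 1.82 ± 0.35 (edgeR FDR = 0.00283).

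In female NX, Lgals3 had 204.998, 5.62, 10.5 and 6.93 CPM in WT libraries 1 to 4 and 61.4, 55.6, 36.2, 7.92 and 64.9 CPM in 5XFAD libraries 1 to 5. The groups overlapped at both ends because of F WT NX 1 and F 5XFAD NX 4. With all 9 libraries Lgals3 was not called (log2FC = -0.35 ± 1.04, edgeR FDR = 0.835). Without F WT NX 1 the difference was 2.55 ± 0.61 (FDR = 0.0454), and without both libraries 2.81 ± 0.25 (FDR = 3.52e-05). Mean Lgals3 was then 7.68 ± 2.53 CPM in WT NX (SD, n = 3) and 54.5 ± 12.8 CPM in 5XFAD NX (SD, n = 4).

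Lgals4 encodes a galectin best known from gut epithelium, and its mean level per kilobase was the lowest of the 6 genes in every group. It was called lower in 5XFAD under CIH in both sexes. Female WT CIH libraries had 8.31, 6.65, 6.96, 6.17 and 7.79 CPM and female 5XFAD CIH libraries had 2.89, 4.19, 2.56, 3.03 and 2.76 CPM, without overlap (log2FC = -1.20 ± 0.16, edgeR FDR = 3.74e-05). Male WT CIH libraries had 9.07, 6.65, 7.89, 8.78 and 9.13 CPM and male 5XFAD CIH libraries had 2.78, 3.68, 3.00, 3.47 and 3.44 CPM, again without overlap (log2FC = -1.33 ± 0.19, edgeR FDR = 4.49e-05). These levels rest on 36 to 167 reads per library of the male CIH groups.

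Under NX, Lgals4 was not called in either sex. In females log2FC was -0.71 ± 0.46 (edgeR FDR = 0.295), with 5.11, 7.88, 6.97 and 7.04 CPM in WT and 2.27, 2.00, 3.12, 9.95 and 2.97 CPM in 5XFAD. F 5XFAD NX 4 had the highest Lgals4 of all 9 libraries while the other 4 lay below every WT library. Without it Lgals4 was called, with log2FC = -1.39 ± 0.22 (FDR = 0.000684). In males Lgals4 had 9.34, 4.59, 6.93, 7.18 and 11.2 CPM in WT NX and 4.84, 6.79, 5.03, 3.93 and 4.22 CPM in 5XFAD NX, with overlap (log2FC = -0.66 ± 0.27, edgeR FDR = 0.11).

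**Figure D2:**
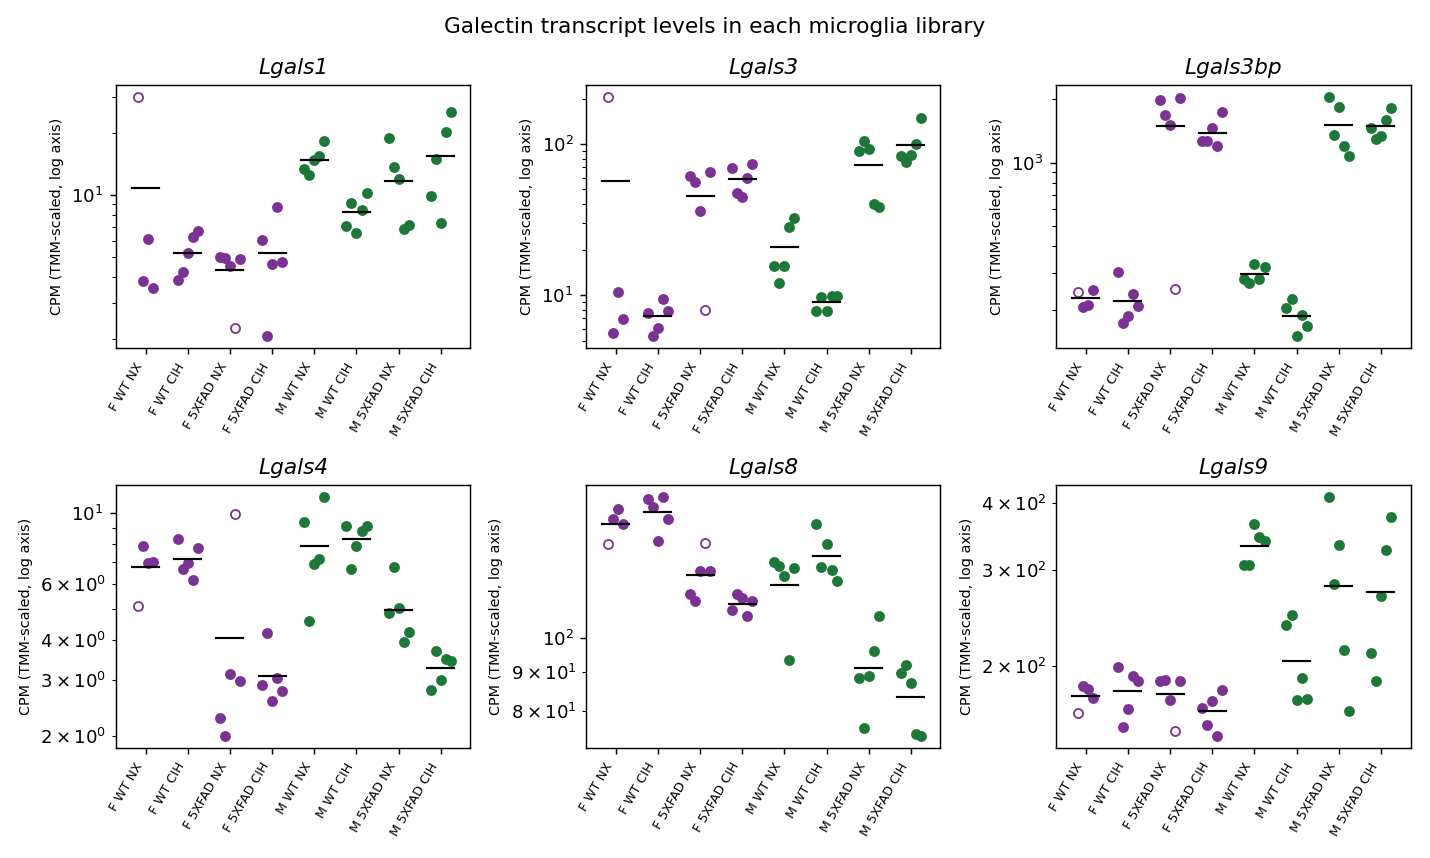
Points give TMM-scaled CPM on a log axis for each library of the 4 female (F, purple) and 4 male (M, green) groups, 1 panel per gene, with the group mean as a line; open points are F WT NX 1 and F 5XFAD NX 4. In the Lgals3bp panel the 5XFAD points lie at 1078 CPM or higher apart from F 5XFAD NX 4 at 252 CPM, and in the Lgals3 panel F WT NX 1 lies at 204.998 CPM above all other female points.

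Lgals8 encodes a galectin that binds sugars exposed on damaged endosomes and lysosomes and recruits autophagy receptors. It had a smaller difference than the genes above, in the direction of lower levels in 5XFAD. Female WT CIH libraries had 134 to 153 CPM (median 149) and female 5XFAD CIH libraries 106.7 to 114 CPM (median 112), and the groups did not overlap (log2FC = -0.38 ± 0.051, edgeR FDR = 3.19e-05). In male CIH the ranges of Lgals8 were 119 to 141 CPM in WT and 74.2 to 91.9 CPM in 5XFAD (log2FC = -0.60 ± 0.097, edgeR FDR = 0.000143). Both differences passed the FDR limit, which 51.9% of all genes passed in female CIH and 49.0% in male CIH, but not the fold limit of 1. Under NX, Lgals8 log2FC was -0.22 ± 0.078 in females (edgeR FDR = 0.0824) and -0.36 ± 0.12 in males (FDR = 0.061).

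Lgals9 encodes galectin-9, a ligand of the checkpoint receptor TIM-3 that is known to respond to interferon. Its mean level was close between genotypes in females, at 176 ± 8.96 CPM in WT NX (SD, n = 4), 177 ± 15.7 in 5XFAD NX, 179.7 ± 18.9 in WT CIH and 165 ± 12.9 in 5XFAD CIH (SD, n = 5). None of the 4 pairwise female comparisons called Lgals9, and its log2FC lay between -0.11 ± 0.077 and 0.033 ± 0.075 (edgeR FDR from 0.252 to 0.998). In males Lgals9 varied more, from 165 to 410.1 CPM among 5XFAD NX libraries and from 187 to 376 CPM among 5XFAD CIH libraries. The genotype difference of Lgals9 in males was -0.24 ± 0.20 under NX (edgeR FDR = 0.481) and 0.43 ± 0.18 under CIH (FDR = 0.0569).

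Lgals1 encodes galectin-1, a dimeric galectin widely expressed in mesenchymal and immune cells. Female libraries held little of it, 2.07 to 8.75 CPM apart from 29.9 CPM in F WT NX 1. The female genotype difference of Lgals1 was -1.34 ± 0.61 under NX (edgeR FDR = 0.154), and it was 0.087 ± 0.23 (FDR = 0.778) without F WT NX 1 and F 5XFAD NX 4. Under CIH it was 0.0074 ± 0.30 in females (edgeR FDR = 0.986). In males Lgals1 had 7.07, 9.12, 6.55, 8.47 and 10.3 CPM in WT CIH and 9.88, 15.0, 7.27, 20.1 and 25.2 CPM in 5XFAD CIH. These groups overlapped, and log2FC of Lgals1 was 0.91 ± 0.28 (edgeR FDR = 0.0147), past the FDR limit and short of the fold limit.

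With a call defined as an FDR below 0.05 and an absolute log2FC above 1, 1 of the 6 genes was called in female WT NX vs 5XFAD NX (Lgals3bp), where 5.99% of all genes tested were called. Without F WT NX 1 and F 5XFAD NX 4, 3 were called (Lgals3, Lgals3bp and Lgals4) against 14.8% of all genes, and with 1 library left out the share of all genes called ranged from 0.189% (without F WT NX 3) to 13.3% (without F 5XFAD NX 4). In female WT CIH vs 5XFAD CIH, 3 were called (Lgals3 and Lgals3bp higher, Lgals4 lower) against 13% of all genes. In male WT NX vs 5XFAD NX, 2 were called (Lgals3 and Lgals3bp) against 8.25%, and in male WT CIH vs 5XFAD CIH, 3 were called (Lgals3, Lgals3bp and Lgals4) against 18.7%. Groups did not overlap for 1 of the 6 genes in female NX (11.7% of all genes), 4 in female CIH (38.4%), 2 in male NX (16%) and 4 in male CIH (35.9%). The median log2FC of all genes tested lay between -0.060 and 0.023 in these 4 comparisons.

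The effect of CIH itself was examined within each genotype. In male WT microglia, Lgals3 fell by 1.19 on the log2 scale (SE 0.23, edgeR FDR = 0.00184), and it was the only one of the 6 genes called, against 2.51% of all genes called (1.63% higher and 0.881% lower). The 5 NX libraries (12.1 to 32.1 CPM) lay above the 5 CIH libraries (7.82 to 9.89 CPM) without overlap. Without M WT NX 5, the library highest in Lgals3, the difference was -0.99 ± 0.21 (FDR = 0.00552), just short of the fold limit. With all 4 male groups in 1 fit it was -1.20 ± 0.30 (FDR = 0.0568).

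At the FDR limit alone, which 28.6% of all genes passed (15.0% lower), 4 of the 6 genes were lower in male WT CIH than in male WT NX: Lgals3, Lgals9, Lgals3bp and Lgals1. Lgals9 had 307, 307, 366, 345 and 339.7 CPM in NX and 238, 248, 173, 189 and 174 CPM in CIH (log2FC = -0.70 ± 0.11, edgeR FDR = 0.00048). Lgals3bp had a log2FC of -0.66 ± 0.11 (FDR = 0.000622) between the NX and CIH values given above. Lgals1 had 13.4, 12.5, 14.8, 15.4 and 18.2 CPM in NX and 7.07, 9.12, 6.55, 8.47 and 10.3 CPM in CIH (log2FC = -0.83 ± 0.16, edgeR FDR = 0.00159). The NX and CIH libraries did not overlap in any of these 4 genes, as in 17.3% of all genes. Lgals8 (0.12 ± 0.091, FDR = 0.337) and Lgals4 (0.081 ± 0.21, FDR = 0.811) did not pass.

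Markers of other cells moved in the same comparison, in which 0.881% of all genes were called lower and 1.63% higher. At the FDR limit alone, 15.0% of all genes were lower. Of the 10 neutrophil markers, all detected, 6 were called lower in male WT CIH, and their sum ranged from 239 to 1232 CPM in WT NX (highest in M WT NX 5) and from 109 to 329.9 CPM in WT CIH. Of the 10 monocyte markers, also all detected, 3 were called lower, with sums of 149 to 227 CPM (highest in M WT NX 5) and 106 to 121 CPM. Of 28 interferon response genes 4 were called lower, and of 32 tested DAM genes, 20 were lower at the FDR limit alone with none called. The summed DAM level was 22270 to 29284 CPM in WT NX (highest in M WT NX 4) and 16931 to 18174 CPM in WT CIH. Of the 10 microglia markers 5 were lower at the FDR limit alone with none called, and their sum was 37662 to 39785 CPM in WT NX and 30542 to 35242 CPM in WT CIH. Of 10 oligodendrocyte markers 2 were called higher and of 9 tested astrocyte markers 1, with overlapping sums. The part of these in the galectin differences was not tested.

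In female WT microglia no galectin gene was called between NX and CIH, and edgeR called 0 of 14583 genes, with 565 at an unadjusted p below 0.05 and 0 by DESeq2. Lgals3 had a log2FC of -2.99 ± 0.97 (FDR = 0.96), which was -0.079 ± 0.23 without F WT NX 1. Between 5XFAD NX and 5XFAD CIH edgeR called 0 of 14578 genes in females (470 at an unadjusted p below 0.05, 0 by DESeq2) and 0 of 14334 in males (473, and 1 by DESeq2). Lgals3 had log2FC = 0.39 ± 0.42 in female and 0.43 ± 0.29 in male 5XFAD microglia, and Lgals3bp -0.091 ± 0.41 and -0.0053 ± 0.18. Lgals4 had -0.39 ± 0.42 in females and -0.60 ± 0.24 in males (FDR = 0.995), although the male libraries did not overlap (3.93 to 6.79 CPM in NX, 2.78 to 3.68 CPM in CIH), as in 0.781% of all genes. The share of all genes called was 0% in each of these 3 comparisons.

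Whether CIH acted differently in 5XFAD and WT was tested as an interaction over the 4 groups of a sex. In males Lgals3 had an interaction of 1.62 ± 0.41 on the log2 scale, ranking 45 by p among 15813 genes, but with an FDR of 0.117 by edgeR's quasi-likelihood test. Lgals1 (1.24 ± 0.41, FDR = 0.121), Lgals9 (0.67 ± 0.29, FDR = 0.17), Lgals3bp (0.65 ± 0.22, FDR = 0.122) and Lgals4 (-0.68 ± 0.31, FDR = 0.186) were also past an unadjusted p of 0.05 without passing the FDR limit. No gene of the table was called by this test (0% of 15813, with 3857 at an unadjusted p below 0.05). The likelihood ratio test called 175 genes, Lgals3 among them (FDR = 0.0425), and DESeq2 called 308, with Lgals3 (FDR = 0.0249) and Lgals1 (FDR = 0.0399). With no filter on low counts the quasi-likelihood test called 790, and without M 5XFAD NX 1 it called 478, in both cases with Lgals3 and Lgals1 among them. In females the interaction called 0 of 15582 genes (589 at an unadjusted p below 0.05, 0 by DESeq2), and that of Lgals3 was 3.36 ± 1.10 with all libraries and 0.19 ± 0.32 without F WT NX 1 and F 5XFAD NX 4.

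**Figure D3:**
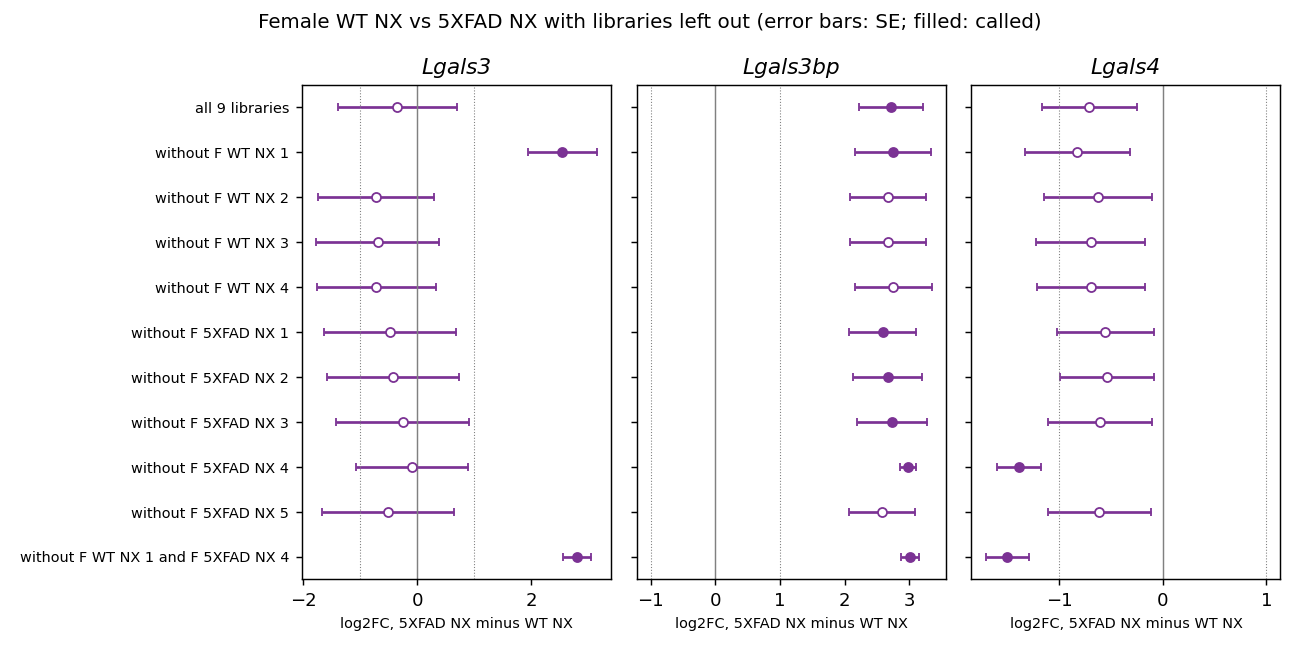
Points give log2FC (5XFAD NX minus WT NX) of Lgals3, Lgals3bp and Lgals4 in females with all 9 libraries, with each library left out and with F WT NX 1 and F 5XFAD NX 4 both left out; bars are SE and filled points were called. Lgals3 moves from -0.35 to 2.55 without F WT NX 1, Lgals4 is filled at -1.39 without F 5XFAD NX 4, and Lgals3bp stays between 2.58 and 3.01.

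In both male 5XFAD groups, the same libraries were at the extremes of several galectin genes. In male 5XFAD NX, libraries 4 and 5 had the lowest Lgals3 (40.2 and 38.1 CPM), Lgals3bp (1206 and 1078), Lgals9 (214 and 165) and Lgals1 (6.86 and 7.18) and the highest Lgals8 (96.0 and 106.7). In male 5XFAD CIH, libraries 4 and 5 had the highest Lgals3, Lgals3bp, Lgals9 and Lgals1 and the lowest Lgals8 (74.7 and 74.2 CPM). After removal of group means, correlations of log2 CPM between the 15 pairs of members ranged from -0.73 to 0.89 in males and, without the 2 female libraries named above, from -0.48 to 0.80 in females, where Lgals1 and Lgals3bp had -0.13. The highest in males was that between Lgals3bp and Lgals9, which was 0.69 over 19 female libraries and 0.89 over 20 male libraries, and it was 0.80 in females without those 2 libraries. Between Lgals3 and Lgals8 it was -0.73 in males. In females it was -0.55, and 0.056 without the same 2. Each library has 1 scaling factor and 1 make-up of sorted cells, which enter the values of both genes of a pair, and the correlations are given as a description.

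Genes whose levels followed each member most closely across libraries were found by the lower of the female and male correlations, over 13426 genes. For Lgals3bp they were Sdc3 (r = 0.99 in females, n = 19, and 0.99 in males, n = 20), the cystatin gene Cst7 (0.99 and 0.99) and Glb1, which encodes lysosomal β-galactosidase (0.99 and 0.99). For Lgals3 they were Cstb, encoding cystatin B (0.97 and 0.98), the lysozyme gene Lyz2 (0.97 and 0.99) and Anxa2, encoding annexin A2 (0.96 and 0.98). Lgals9 was followed by the Fc receptor gene Fcgr1 (0.81 in females and 0.95 in males), Ctnnd1 (0.74 and 0.82) and Msrb2 (0.72 and 0.75). Lgals4 was followed by Unc13b (0.88 and 0.87), Slc39a12 (0.94 and 0.86) and Rasgrp4 (0.91 and 0.86). Lgals8 was followed by Stard8 (0.94 and 0.95), Tgfbrap1 (0.93 and 0.93) and Pld1, encoding phospholipase D1 (0.93 and 0.93), and Lgals1 by Blvrb, encoding biliverdin reductase B (0.75 and 0.82), Tubb4b (0.75 and 0.73) and Msrb1 (0.73 and 0.79). Libraries of 4 groups enter each value, so differences between groups can be part of it, to an extent that varied by pair. In males, r of Lgals9 was no lower within groups with Fcgr1 (0.96) and with Msrb2 (0.84). Within groups r was lower for most of these 18 pairs, from 0.25 (Lgals4 with Slc39a12) to 0.96 (Lgals9 with Fcgr1) in males and, without F WT NX 1 and F 5XFAD NX 4, from 0.19 (Lgals4 with Unc13b) to 0.95 (Lgals3 with Cstb) in females.

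The partners of galectins were examined by lists. Of 30 receptors and binding partners, all tested, 3 were called higher and 1 lower in 5XFAD in female NX, 8 and 1 in female CIH, 7 and 2 in male NX, and 8 and 1 in male CIH, where 4.40%, 8.83%, 5.94% and 11.8% of all genes were called higher and 1.59%, 4.12%, 2.31% and 6.88% lower. Without F WT NX 1 and F 5XFAD NX 4, 8 were called higher and 1 lower in female NX, where the shares of all genes were 8.48% and 6.36%. Axl, a receptor for apoptotic cell bridging proteins that is also in the DAM list, was higher in each (log2FC = 3.52 ± 0.65, 4.25 ± 0.14, 3.94 ± 0.18 and 4.13 ± 0.13, in the same order). The semaphorin receptor gene Nrp1 rose by 1.16 ± 0.32 to 1.68 ± 0.20 and Trem2, also a DAM gene, by 1.04 ± 0.21 to 1.83 ± 0.16. Pecam1, an adhesion gene of endothelium that is also in the endothelial marker list, fell in each, with log2FC from -1.22 ± 0.20 to -1.79 ± 0.16.

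Of 40 genes of the response to damaged lysosomes, 36 were tested, and 2, 2, 2 and 6 were called higher and 0, 1, 0 and 0 lower in the same 4 comparisons (2 higher and 1 lower in female NX without both libraries). Over all genes, 4.40%, 8.83%, 5.94% and 11.8% were called higher and 1.59%, 4.12%, 2.31% and 6.88% lower (8.48% and 6.36% in female NX without both libraries), and nothing is read from these counts about the list. Rragd, encoding a Rag GTPase that signals nutrient state at lysosomes, rose in each by 3.20 ± 0.62, 3.49 ± 0.13, 3.77 ± 0.28 and 3.38 ± 0.24. The autophagy receptor gene Optn rose by 1.64 ± 0.38, 2.19 ± 0.12, 2.08 ± 0.21 and 1.70 ± 0.15. Trim16, a partner of galectin-3 at damaged membranes, was called lower in female CIH (-1.46 ± 0.23, edgeR FDR = 0.000174) and not in the other 3 comparisons. Gabarap, an autophagosome protein gene, was called higher in male CIH alone (1.63 ± 0.15).

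Of 28 enzymes that build or trim the glycans galectins bind, all tested, 2, 2, 2 and 3 were called higher and none lower (4 higher and none lower in female NX without both libraries). The shares of all genes are those given for the lysosome list, and nothing is read from these counts either. The 2 called in every comparison were Glb1, which removes terminal galactose (log2FC from 1.42 ± 0.12 to 2.06 ± 0.11), and Gcnt2, a branching enzyme of polylactosamine chains (1.48 ± 0.34 to 1.71 ± 0.10). St3gal1, a sialyltransferase, was called higher in male CIH (1.24 ± 0.17). The list medians of log2FC were -0.042, 0.032, 0.0011 and -0.094, beside -0.020, -0.018, 0.023 and -0.060 over all genes.

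Of 28 interferon response genes, 21, 21, 21 and 22 were called higher in 5XFAD, with list medians of 1.53, 1.41, 1.39 and 1.73, where 4.40%, 8.83%, 5.94% and 11.8% of all genes were called higher. Ifi27l2a rose by 2.71 ± 0.62 to 4.34 ± 0.31 and Ifi44 by 2.35 ± 0.42 to 2.98 ± 0.73. Of 33 DAM genes, 24, 33, 33 and 33 were called higher. In female NX without F WT NX 1 and F 5XFAD NX 4, 24 interferon genes and all 33 DAM genes were called higher, against 8.48% of all genes. Cst7 rose by 6.80 ± 1.15 to 8.20 ± 0.27. The DAM list was assembled from genes known to rise in microglia around amyloid, and it shares Axl, Trem2 and Cd9 with the receptor list. Of 10 border macrophage markers, 8, 7, 7 and 1 were called lower in 5XFAD in the same order, where 1.59%, 4.12%, 2.31% and 6.88% of all genes were called lower (7 in female NX without both libraries, against 6.36%). The same shares of all genes stand behind the counts of the other markers. All 10 were detected, and their sums were 182 to 404 CPM over the WT libraries of both sexes and 96.2 to 220 CPM over the 5XFAD libraries with overlap. Astrocyte markers were called higher in 1, 5, 4 and 2 of 10 and lower in 0, 0, 0 and 1, and oligodendrocyte markers higher in 0, 1, 3 and 2. Neutrophil markers were called lower in 3 of 9 tested in male CIH and none in the others, T cell markers lower in 1 of 3, 1 of 3, 1 of 4 and 2 of 6 tested and higher in 3 in male CIH, and erythroid markers lower in 2 of 5 tested in male NX. Microglia markers were called lower in 1, 2, 2 and 2 of 10 and monocyte markers in 1, 1, 1 and 0 of 10, with 1 of each higher in male CIH. Endothelial markers had 1 higher and 1 lower in each comparison, and neuron markers 0, 1, 1 and 1 higher and 0, 1, 1 and 0 lower. Their part in the galectin differences was not tested. The other galectin genes were near the detection limit: Lgals2, Lgals7, Lgals12 and Grifin were at or below 2.32 CPM in every library. Only the galectin-like gene Lgalsl was tested, with log2FC of 0.53 ± 0.25, 0.82 ± 0.12, 0.76 ± 0.22 and 0.66 ± 0.23, none past the fold limit. It passed the FDR limit in female CIH (edgeR FDR = 6.05e-05), male NX (0.0298) and male CIH (0.0262).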

How the data were processed

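CD11b+ cells were isolated with magnetic beads, and RNA was sequenced as mRNA libraries (paired-end). Reads were aligned to GRCm38 (mm10), and the submitters' processing notes name HISAT2, with no version given in the sources used here. Whole-number read counts per gene were deposited by the authors without normalization. As deposited by the authors, FPKM values are counts over gene length and library total, with a further factor per library in males that lay close to the TMM factor. FPKM values served only to obtain gene lengths in females. Columns of per-sample values left unmapped numbered 0.

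The main test was the quasi-likelihood F test of edgeR 4.0.16 under R 4.3.3 on TMM-normalized counts (CPM above 1 in at least 3 of the libraries compared), each pair of groups apart and the sexes apart, with Benjamini-Hochberg FDR over all genes tested. Calls needed an FDR below 0.05 and an absolute log2FC above 1. SE was derived from log2FC and F. CPM were TMM-scaled within a sex. Promoters and loci were read from RefSeq and GENCODE tables with Python 3.11.15. Groups and replicate numbers followed the sample titles. Within groups, 76 library pairs were compared, and none agreed within sampling noise (the lowest ratio of chi-square to degrees of freedom was 4.59). All 6 galectin genes are named, with up to 4 genes per list called in the most genotype comparisons and 3 genes of most similar pattern per member. Other genes were named after their values were seen. The galectin genes and the gene lists were chosen with earlier results of these data known. Alternatives were the likelihood ratio test, DESeq2 1.42.0, library size alone, no filter, FDR alone, all 4 groups in 1 fit, the replicate number as a block, and libraries left out.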

Additional observations from a re-analysis of the deposited data

Results flagged for a closer look

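In 48 sets of 4 or 5 libraries (6 genes in 8 groups), a library far from the others was looked for with Dixon's test, which flags about 1 in 20 sets by chance, and 6 sets were marked. F WT NX 1 was marked for Lgals3 at 204.998 CPM (the others at 5.62 to 10.5 CPM) and for Lgals1 at 29.8787 CPM (the others at 3.55 to 6.15 CPM). F 5XFAD NX 4 was marked for Lgals4 at 9.95392 CPM (the others at 2.00 to 3.12 CPM) and for Lgals1 at 2.27019 CPM (the others at 4.52 to 5.03 CPM). F 5XFAD CIH 2 was marked for Lgals4 at 4.18778 CPM (the others at 2.56 to 3.03 CPM), and M WT NX 4 for Lgals8 at 93.5579 CPM (the others at 120 to 126 CPM). The cause was not tested.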

How the results depend on the processing

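Lgals3bp, Lgals3 and Lgals4 kept their direction and their calls under CIH in both sexes in every alternative run. The number of members called moved elsewhere. In female NX it was 0 with the replicate block (0.0482% of all genes called) and 3 without F WT NX 1 and F 5XFAD NX 4 (14.8%; an alternative added after the data were seen). In female WT it was 1 with no filter (Lgals3, log2FC = -3.04, with 0.0572% of all genes called). By FDR alone it was 4 in female CIH (51.9% of all genes), 5 in male CIH (49.0%) and 4 in male WT (28.6%), and in male WT it was 0 with 4 groups in 1 fit, as for all genes (0%). In the male interaction members called were 1 by the likelihood ratio test (1.11%), 2 by DESeq2 (1.95%) and 2 with no filter (2.06%). With 1 library left out, members called ranged from 0 to 2 in female NX (0.189% to 13.3% of all genes) and in the male interaction (0% to 3.03%), from 3 to 4 in male CIH (16.4% to 20.6%) and from 0 to 1 between male WT NX and WT CIH (1.81% to 4.18%).

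In no comparison did every same-numbered pair of libraries correlate above 0.1. The highest values were 0.35 and 0.30, for numbers 4 and 5 between female 5XFAD NX and CIH. The lowest was -0.49, for number 5 between male 5XFAD NX and CIH. Whether libraries of the same number shared a batch was not tested. With the number as a block, genes called in female NX went from 869 to 7, Lgals3bp was 2.32 (FDR = 0.105), and Lgals3 (0.89) and Lgals9 (-0.00313) turned sign. The block also turned Lgals1 in female CIH (-0.071), and Lgals3bp in female 5XFAD (0.14), the female interaction (0.091) and male 5XFAD (0.026). None of these had been called.

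Other reversals were in differences near 0 or resting on 1 library. Scaling by library size, which shifted the median of all genes by -0.37 in male CIH (1147 genes higher and 2527 lower, against 1746 and 1018) and by less elsewhere (-0.15 in female NX and -0.19 in female CIH), gave -0.14 for Lgals9 in female NX and -0.19 for Lgals1 in female CIH. Both moved by about as much as all genes did. In female CIH Lgals1 was also -0.00426 with no filter and -0.00861 with 4 groups in 1 fit. Without both doubtful libraries Lgals1 was 0.087 and Lgals3 2.81 in female NX, and in the female interaction Lgals1 was -0.11 and Lgals4 0.28. With 1 library left out, Lgals3 ranged from -0.72 to 2.55 and Lgals9 from -0.016 to 0.058 in female NX, and Lgals1 from -0.26 to 0.22 in female CIH. Between female WT NX and WT CIH, Lgals1 ranged from -1.36 to 0.22, Lgals3bp from -0.17 to 0.036, Lgals4 from -0.021 to 0.18 and Lgals9 from -0.00168 to 0.082. Between female 5XFAD groups, Lgals3bp ranged from -0.36 to 0.044 and Lgals4 from -0.56 to 0.27, and in the female interaction from -0.33 to 0.072 and from -0.66 to 0.18. In males, Lgals4 ranged from -0.061 to 0.24 in WT, and Lgals3bp from -0.10 to 0.14 and Lgals9 from -0.18 to 0.14 in 5XFAD. The cause was not tested. Lgals4 and Lgals1 rest on few reads (30 to 196 for Lgals4), and the female NX comparison has 4 WT libraries.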
